A study of Mus musculus with 20 samples.

Results

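Genes of iron handling were followed through the liver and tumor tissue of a mouse model of colorectal liver metastasis (CRLM) and through cells sorted from its metastases. The 10 genes were chosen by name from the 54532 genes counted in both deposited tables: Trf, Tfrc and Tfr2 for uptake, Fth1 and Ftl1 for storage, Slc40a1 and Cp for export, and Cd163, Hmox1 and Slc11a1 for the iron and heme handling of macrophages. Iron travels in blood bound to transferrin, which hepatocytes secrete and which cells take up through transferrin receptors. Inside cells it is stored in ferritin, and it leaves them through ferroportin, an exporter that the hepatocyte hormone hepcidin removes from the membrane. Liver macrophages clear old red cells and hemoglobin, break down the heme and hand its iron back to the blood, so the liver both stores and recycles iron.

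All animals were wild-type C57BL/6 mice, 6 to 8 weeks old in the study's methods. The injected mice received 1000000 MC38 cells, a colon adenocarcinoma line from the same strain, through the spleen and portal vein. The tissue groups were normal liver at day 0 after normal saline (con, n = 2), tumor-free liver remote from the tumor at day 12 (L-con, n = 1) and low-content metastases at 9 days post-injection (Lt, n = 2). The others were medium-content metastases at day 9 (Mt3, n = 2) and day 11 (Mt2 and Mt1, n = 2 each) and high-content metastases at day 12 (Ht, 3 libraries). F4/80+ and CD11b+ cells were taken from Mt2 metastases at day 11 with magnetic microbeads, in 3 libraries each. The methods call Ht libraries 1 and 3 identical, so their counts were summed into 1 sample (Ht 1+3), which left 2 Ht samples. The counts of libraries 1 and 3 nevertheless differed beyond sampling noise, with a chi-square per degree of freedom of 27.6 over 16846 genes, beside 26.7 for libraries 1 and 2 and 12.1 for libraries 2 and 3. The same measure was higher between the con libraries (46.9 over 14558 genes) and between the Lt libraries (52.5 over 16129). The biopsies contained tumor together with the liver around it. The methods grade them by their content of tumor, which made up nearly all of the Ht samples. For the tissue the labels give male mice where the methods give female mice. Total counts per library ran from 16032085 to 18246623 in tissue (median 16961026.5) and from 17785496 to 20548370 in sorted cells (median 18097652.5). The upper limit of 3 counts that a count of 0 allows corresponds to 0.146 to 0.187 CPM before normalization, for counting error only.

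Levels are given as counts per 1000000 counts (CPM) after TMM normalization, and levels of the 10 genes are compared with each other only as FPKM, which also divides by gene length. A marker gene named beside a summed level is the one with the largest part of that sum in CPM, in which gene length is not divided out. A gene was called where edgeR's quasi-likelihood F test gave a Benjamini-Hochberg adjusted p of at most 0.05 and the fold change was 2 or more in either direction (1 on the log2 scale). Errors of log2 fold changes are standard errors (SE). All 10 genes passed the filter on low counts in the tissue fit (17187 genes tested), the sorted-cell fit (14263) and the joint fit of both (18407). The con samples had TMM factors of 0.686 and 0.710 and the Ht samples 1.60 and 1.58. Scaling by total counts in place of TMM moved the median log2 fold change of all genes from 0.10 to 0.40 for con to Lt, from -0.02 to 0.33 for Lt to Mt, from 0.00 to 0.55 for Mt to Ht and from 0.09 to 1.28 for con to Ht, and changes are given relative to the TMM scale.

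Ferritin transcripts were the most abundant of the 10 genes in normal liver. In con, mean FPKM was 2452 for Fth1 and 1634 for Ftl1, followed by Cp at 172, Trf at 153, Tfr2 at 127, Slc40a1 at 25.0, Hmox1 at 17.8, Cd163 at 12.95, Tfrc at 10.9 and Slc11a1 at 4.46. In Ht, Fth1 still stood at 1714 FPKM and Ftl1 at 475, while Hmox1 at 40.5 came before Cp at 31.1 and Trf at 26.7, and Tfr2 at 4.04 was level with Cd163 at 4.04. Cp, Trf and Tfr2 thus ranked directly below ferritin in con, while in Ht they ranked below Hmox1, and Tfr2 also below Slc11a1 (10.7 FPKM) and Tfrc (6.74).

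Transferrin, the iron carrier of plasma, is encoded by Trf (ENSMUSG00000032554, GRCm38 chr9:103204001-103230444, minus strand). Its CPM was 616 and 366 in con, 1823 and 1007 in the Lt samples and 627 in the remote liver. The medium-content samples held 364 and 1331 (Mt3), 479 and 332 (Mt2) and 631 and 198 (Mt1), and the Ht samples 84.6 and 83.9. The Ht samples lay below every other tissue sample, both Lt samples lay above both con samples, and the Mt3 samples lay on either side of con. By group mean the order was Lt at 1415 ± 577 (SD, n = 2), Mt3 at 848 ± 683, con at 491 ± 177, Mt1 at 414 ± 306, Mt2 at 405 ± 104 and Ht at 84.3 ± 0.524, and the neighbours from Lt to Mt2 did not differ beyond their spread. The gene body of Trf overlaps that of Gm20425 on the same strand (chr9:103190208-103230307), which held 0 counts in every library.

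Transferrin receptor 2, from Tfr2 (ENSMUSG00000029716, chr5:137569840-137587481, plus strand), is the hepatocyte sensor of transferrin-bound iron that acts upstream of hepcidin. Its CPM was 519 and 543 in con, 454 and 350.4 in the Lt samples and 614 in the remote liver. Medium-content samples gave 474 and 327 (Mt3), 407 and 107 (Mt2) and 268 and 103 (Mt1), and the Ht samples 13.5 and 19.8. Every metastasis sample lay below both con samples, the second libraries of Mt2 and Mt1 were the lowest outside Ht, and Ht was apart from all others. The group means ran from con at 531 ± 16.9 through Lt at 402 ± 73.2, Mt3 at 401 ± 104, Mt2 at 257 ± 212 and Mt1 at 186 ± 117 to Ht at 16.7 ± 4.47 (SD, n = 2 each), and the neighbours from Lt to Mt1 overlapped.

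Transferrin receptor 1, from Tfrc (ENSMUSG00000022797, chr16:32608920-32632794, plus strand), takes up transferrin in most cell types and is high in dividing and erythroid cells. Its CPM spanned 37.0 in Ht 1+3 to 83.8 in L-con, with group means of 65.2 ± 12.1 in con, 53.1 ± 11.9 in Mt1, 49.1 ± 4.59 in Lt, 45.5 ± 5.003 in Mt2, 39.6 ± 3.81 in Ht and 39.0 ± 2.12 in Mt3 (SD, n = 2 each). It therefore held the narrowest range of means besides Fth1, and the neighbours from Mt1 to Mt3 lay within each other's spread.

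The ferritin chains store iron in a shared shell, in which the heavy chain oxidizes iron and the light chain aids its mineralization. Fth1 (ENSMUSG00000024661, chr19:9982703-9985092, plus strand) had means of 2045 ± 139 CPM in con, 1858 ± 29.8 in Mt3, 1631 ± 17.98 in Mt1, 1623 ± 207 in Lt, 1605 ± 316 in Mt2 and 1412 ± 123 in Ht (SD, n = 2 each), and the neighbours from Mt1 to Ht did not differ beyond their spread. Ftl1 (ENSMUSG00000050708, chr7:45457944-45459884, minus strand) was at 2659 and 1561 CPM in con, 1515 and 1193 in the Lt samples and 1927 in the remote liver. At medium content it stood at 1579.9 and 1341 (Mt3), 1468 and 685 (Mt2) and 1152 and 898 (Mt1), and the Ht samples 519.9 and 691. Ht 1+3 held the lowest Ftl1 level, and Ht 2 lay beside Mt2 2. The FPKM of Fth1 over that of Ftl1 was 1.25 and 1.93 in con, 1.81 and 1.91 in Lt, 1.46 in the remote liver, between 1.84 and 3.12 in the 6 Mt samples, and 3.94 and 3.36 in Ht. Heavy-chain transcripts exceeded light-chain transcripts in every tissue sample, and by the largest ratios in the Ht samples.

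Ferroportin, from Slc40a1 (ENSMUSG00000025993, chr1:45908068-45926523, minus strand), is the exporter through which hepatocytes and macrophages release iron. Its CPM was 242 and 192 in con, 211 and 200.1 in the Lt samples and 286 in the remote liver. In the medium groups its level was 204 and 200.1 (Mt3), 174 and 81.6 (Mt2) and 222 and 85.1 (Mt1), and the Ht samples 27.3 and 43.9. The means of con (217 ± 35.1), Lt (205 ± 7.37) and Mt3 (202 ± 2.79) lay within their spread, Mt1 (154 ± 96.8) and Mt2 (128 ± 65.5) each held 1 high and 1 low sample, and Ht (35.6 ± 11.8; SD, n = 2 each) lay below all. Ceruloplasmin, the plasma ferroxidase that loads exported iron onto transferrin, comes from Cp (ENSMUSG00000003617, chr3:19957054-20009145, plus strand). Its CPM was 1601 and 1572 in con, 1850.0 and 1273 in the Lt samples and 1822 in the remote liver. The medium-content livers had 1505 and 1476 (Mt3), 1258 and 794 (Mt2) and 2011 and 731 (Mt1), and the Ht samples 199.9 and 367. The highest value and the lowest outside Ht both belonged to Mt1, and only the Ht samples lay apart from all others. By group mean the order was con at 1586 ± 20.7, Lt at 1562 ± 408, Mt3 at 1491 ± 20.1, Mt1 at 1371 ± 905, Mt2 at 1026 ± 328 and Ht at 283 ± 118 (SD, n = 2 each), and of these neighbours only Mt2 and Ht lay apart beyond their spread. The gene body of Cp overlaps that of Hps3 on the other strand, which held 136 to 2342 counts per library, and the unstranded libraries could not assign reads in the overlap to a strand.

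Cd163 (ENSMUSG00000008845, chr6:124304656-124330527, plus strand) encodes the macrophage receptor for hemoglobin bound to haptoglobin. Its CPM was 70.1 and 66.1 in con, 85.9 and 88.5 in the Lt samples and 134 in the remote liver. At medium content the values were 60.4 and 95.6 (Mt3), 64.4 and 34.9 (Mt2) and 109 and 29.8 (Mt1), and the Ht samples 20.5 and 21.5. The remote liver was the highest and Ht the lowest, with Mt1 2 the nearest sample above Ht. Group means ran from Lt at 87.2 ± 1.85 through Mt3 at 78.0 ± 24.9, Mt1 at 69.2 ± 55.7, con at 68.1 ± 2.85 and Mt2 at 49.6 ± 20.9 to Ht at 21.01 ± 0.661 (SD, n = 2 each), with no neighbours apart beyond their spread except Mt2 and Ht.

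Heme oxygenase 1, from Hmox1 (ENSMUSG00000005413, chr8:75093621-75100589, plus strand), opens the heme ring and frees its iron. Its CPM was 40.5 and 19.4 in con, 47.9 and 49.7 in the Lt samples and 40.9 in the remote liver. Levels at medium content were 43.0 and 59.5 (Mt3), 48.9 and 74.7 (Mt2) and 108 and 69.2 (Mt1), and the Ht samples 71.1 and 63.7. Both con samples lay below every metastasis sample, and the Ht samples lay inside the Mt range. Slc11a1 (ENSMUSG00000026177, chr1:74375195-74386062, plus strand) encodes NRAMP1, which moves iron and other metals out of phagosomes in macrophages and neutrophils. Its CPM was 20.7 and 11.2 in con, 28.5 and 41.4 in the Lt samples and 33.5 in the remote liver. Medium content gave 30.2 and 46.9 (Mt3), 39.4 and 46.5 (Mt2) and 51.2 and 52.5 (Mt1), and the Ht samples 31.9 and 43.3. For both genes the group means were lowest in con (30.0 ± 14.9 for Hmox1, 15.9 ± 6.75 for Slc11a1) and highest in Mt1 (88.7 ± 27.7 and 51.8 ± 0.927; SD, n = 2). Among the metastasis groups the neighbours lay within their spread, except that both Mt1 samples lay above both Mt2 samples for Slc11a1.

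**Figure D1:**
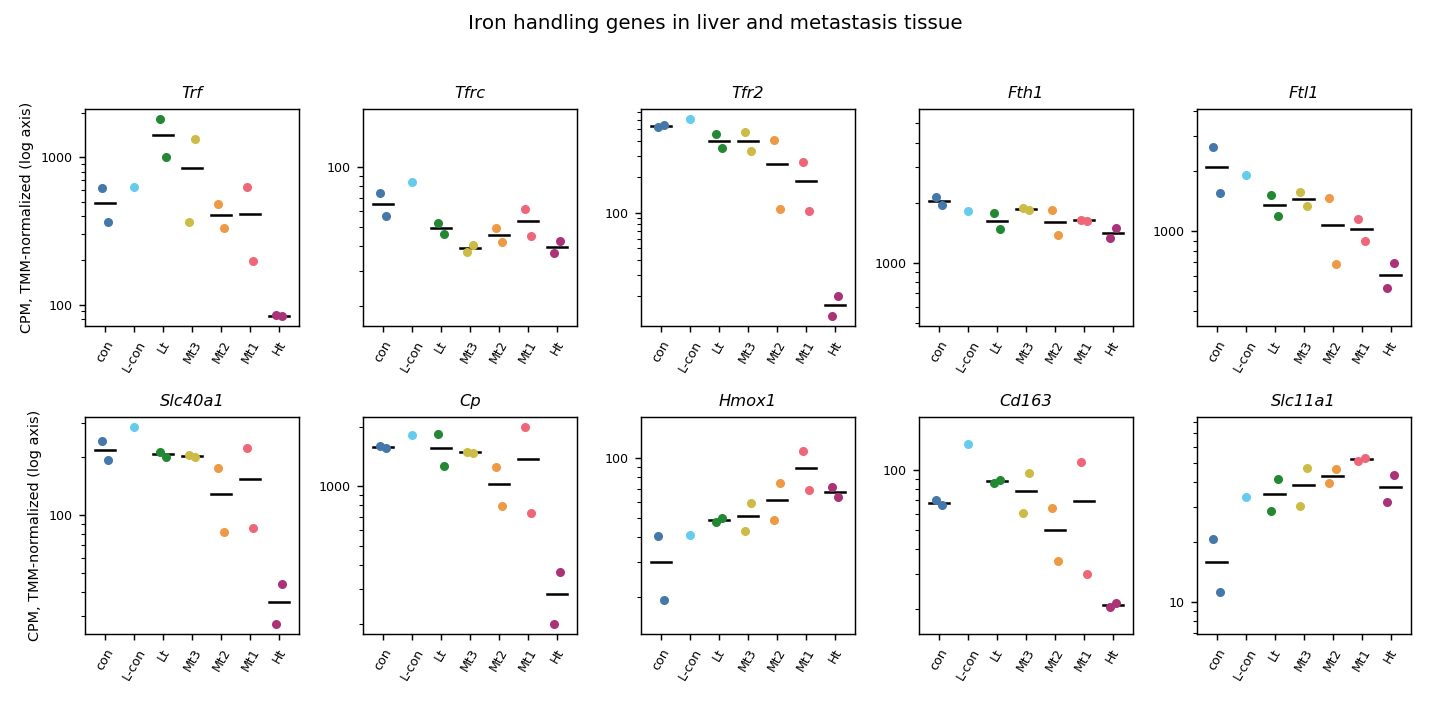
CPM of each of the 10 genes (log axis) in the tissue groups, ordered from normal and remote liver to high content, with 1 point per sample and a bar at the group mean. Tfr2 lay between 13.5 and 19.8 in Ht and between 519 and 543 in con, while Slc11a1 and Hmox1 were lowest in con.

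The comparison of con with Lt asked what differed between normal liver and the low-content metastases. Slc11a1 and Trf had the largest differences of the 10 genes, both toward higher levels in Lt, and neither was called. Slc11a1 had a log2 fold change of 1.13 (SE 0.33, adjusted p = 0.0516) and Trf of 1.53 (SE 0.69, adjusted p = 0.180). Both Lt samples lay above both con samples for each of these, and also for Hmox1 and Cd163. They lay below both for Tfrc, Tfr2, Fth1 and Ftl1, and the share of all genes without overlap was not counted. The storage genes had values of -0.33 for Fth1 and -0.64 for Ftl1, uptake genes of -0.41 for Tfrc and -0.40 for Tfr2, the exporters of -0.08 for Slc40a1 and -0.02 for Cp (0.21 and 0.24 under total-count scaling), and the heme genes of 0.36 for Cd163 and 0.70 for Hmox1.

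By edgeR 0 of the 10 genes were called in either direction, where 12.4% of all genes were called higher and 0.256% lower. An unadjusted p under 0.05 was found for 1 of the 10 (Slc11a1) and for 4917 of all 17187 genes. DESeq2 called 1 of the 10, Slc11a1 (log2 fold change 1.06), and of all genes 2364 higher and 166 lower. Slc11a1 also passed without Lt 1 (1.36), without con 1 (1.63) or with no filter (1.13), and Trf passed with no filter (1.53) or with only the compared groups fitted (1.48). The 2177 genes called in all became 735 without con 2, 918 without Lt 2 and 1428 without con 1. The median log2 fold change was -0.05 over the 10 genes (0.23 under total-count scaling) and 0.10 over all genes. Of the 60 other iron genes listed, 58 were tested and 1 was called, higher: Lcn2, whose protein lipocalin 2 sequesters bacterial iron carriers, rose from 8.59 and 1.90 CPM in con to 155 and 122 in the Lt samples (log2 fold change 4.73, SE 0.80, adjusted p = 0.00543). Of the same list total-count scaling called 2 higher, and DESeq2 called 1 higher and 1 lower. The median over that list was -0.14, or -0.18 with 2 genes absent from a group set at their bound, and 0.13 under total-count scaling. Hepcidin itself, from Hamp, was at 1125 and 968 CPM in con and 542 and 415 in Lt (-1.13, SE 0.84, adjusted p = 0.399). Hamp2, a second hepcidin gene, went the other way, from 8 to 28 counts per library in con against 86 to 166 in Lt. It was not called either (2.48, SE 1.31, adjusted p = 0.251). The genes of the plasma scavengers of hemoglobin and heme had values of 0.54 for Hp and 0.57 for Hpx, neither called.

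Markers of several cell types moved in the same comparison. Of 12 macrophage markers 8 were called higher in Lt, with a summed level of 752 and 499 CPM in con (Mrc1 the largest part) and 1319 and 2081 in Lt (Lyz2), beside 5 of 7 monocyte markers, 4 of 6 neutrophil markers (Ly6g at 0 in both con and both Lt samples) and 7 of 7 proliferation markers. By edgeR 0 of 13 hepatocyte, 0 of 7 Kupffer cell, 0 of 7 endothelial and 0 of 7 erythroid markers were called, with 0, 2, 0 and 0 at an unadjusted p under 0.05 and 0, 1, 0 and 0 called by DESeq2. The part of these markers in the levels of Slc11a1 and Trf was not tested, and in bulk tissue fewer cells of a type and less RNA per cell cannot be told apart.

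The next comparison set Lt against medium content as a whole (Mt, the log2-scale average over its 3 groups) and asked what differed at medium content. Trf had the largest difference of the 10 genes, -1.44 on the log2 scale (SE 0.51, adjusted p = 0.219), and Mt3 2 with 1331 CPM lay between the Lt samples while the other 5 Mt samples lay below both. Tfr2 followed at -0.59, Cd163 at -0.44, Hmox1 at 0.42, Slc40a1 at -0.37, Slc11a1 at 0.34, Cp at -0.29 (0.03 under total-count scaling), Ftl1 at -0.21 (0.11), Tfrc at -0.11 (0.22) and Fth1 at 0.06. For each of the 10 genes the ranges of Lt and Mt overlapped.

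By edgeR 0 of the 10 genes were called, as were 0 (0%) of all 17187 genes. At an unadjusted p under 0.05 there were 1 of the 10 (Trf) and 3282 of all genes, and DESeq2 called 0 of the 10 and 240 of all. Without Mt2 1, 778 genes were called in all. The median was -0.25 over the 10 genes (0.07 under total-count scaling) and -0.02 over all genes. Of the 58 other iron genes tested edgeR called 0, with 12 at an unadjusted p under 0.05 and 1 called by DESeq2, and their median was -0.39 (-0.08 under total-count scaling). The genes with the most negative values among those named were Hamp2, a second hepcidin gene, at -3.97 (adjusted p = 0.214, the DESeq2 call), Hamp at -1.42 (adjusted p = 0.264) and Alas2, which starts heme synthesis in red cell precursors, at -1.28 (adjusted p = 0.233). Of the 8 marker lists edgeR called 0 genes, with 10 at an unadjusted p under 0.05, and DESeq2 called 1, a macrophage marker, while the summed hepatocyte level ran from 26506 to 144163 CPM over the 6 Mt samples beside 184989 and 102624 in Lt.

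Between Mt and Ht, the comparison of medium with high tumor content, Trf and Tfr2 of the uptake genes, both export genes and Cd163 fell. Tumor content of the biopsy and day differ together between these groups and cannot be told apart. Tfr2 fell 16.04-fold (log2 fold change -4.00, SE 0.64, adjusted p = 0.00861). Trf fell 6.19-fold (-2.63, SE 0.65, adjusted p = 0.0237), Cp 4.52-fold (-2.18, SE 0.48, adjusted p = 0.0158), Slc40a1 4.45-fold (-2.15, SE 0.44, adjusted p = 0.0127) and Cd163 3.06-fold (-1.62, SE 0.46, adjusted p = 0.0367). For these 5 genes both Ht samples lay below all 6 Mt samples, a separation that was not counted over all genes. The remaining genes overlapped between the groups, with values of -0.95 for Ftl1 (adjusted p = 0.0905), 0.04 for Hmox1 and, turning to 0.30, 0.30 and 0.37 under total-count scaling, -0.26 for Fth1, -0.23 for Slc11a1 and -0.20 for Tfrc.

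Of the 10 genes 5 were called lower, where 13.4% of all genes were. In the other direction edgeR called 0 of the 10 higher, where 1.5% of all genes were. DESeq2 called 0 of the 10 higher and 5 lower, and of all genes 450 higher and 2503 lower. An unadjusted p under 0.05 was found for 6 of the 10, each with a negative value, and for 6982 of all 17187 genes. The median was -1.28 over the 10 genes (-0.68 under total-count scaling) and 0.00 over all genes. All genes called divided into 257 higher and 2306 lower, or 2587 higher and 1773 lower under total-count scaling, which kept the 5 genes called. Without Ht 2, which left the lone sample Ht 1+3, the calls of Tfr2 (-4.30), Trf (-2.62), Slc40a1 (-2.53), Cp (-2.68) and Cd163 (-1.65) ended along with those of all genes (0). With Ht 1 and 3 kept as separate libraries and Ht 2 left out, an alternative chosen after seeing the data, 6 of the 10 and 2753 of all genes were called. That fit counts as 2 replicates the libraries that the methods call identical, so its calls rest on more replicates than separate samples. Cd163 also lost its call without Mt2 1 (-1.41), Mt3 1 (-1.71) or Mt3 2 (-1.49) or with only the compared groups fitted (-1.63), and Ftl1 was called without Mt2 2 (-1.10) or with Ht as 3 libraries (-1.03).

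Of the 58 other iron genes 22 were called lower. By edgeR 0 were called higher, with 38 at an unadjusted p under 0.05 in either direction and 0 called higher by DESeq2, and total-count scaling called 2 higher and 16 lower. The list's median was -0.75, unchanged with 1 gene at its bound, and -0.17 under total-count scaling. Among the 11 genes of the hepcidin axis 4 fell, among them Hamp (-4.58, SE 0.92, adjusted p = 0.0120), Hfe2, the hemojuvelin co-receptor that raises hepcidin (-3.54, SE 0.55, adjusted p = 0.00861) and Tmprss6, a protease that cuts hemojuvelin (-3.75, SE 0.68, adjusted p = 0.00936). Hamp went from 266 and 797 CPM (Mt3), 147 and 85.7 (Mt2) and 165 and 20.3 (Mt1) to 4.85 and 10.2 (Ht). Ht thus lay below every Mt sample, Mt1 2 being the nearest. Hamp2 had 0 counts in Ht, 121 in Mt3 2 and 1 to 15 in the other Mt samples, and was not called (adjusted p = 0.0877). Transcripts of both an activator and an inhibitor of hepcidin thus fell beside that of hepcidin.

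Uptake and transport genes fell in 4 of 9 cases, among them Scara5, a ferritin receptor (-3.34, SE 0.62), while Steap3, the ferrireductase of endosomes (-0.23, or 0.34 under total-count scaling), and the iron importer Slc11a2 (-0.64, adjusted p = 0.0285) did not pass. Genes of heme synthesis and mitochondrial iron fell in 8 of 16 cases (4 under total-count scaling and 6 by DESeq2), led by Alas2 (-5.02, SE 0.76, adjusted p = 0.00861), and not with the mitochondrial iron importer Slc25a37 (-0.09, or 0.45 under total-count scaling). Heme handling genes fell in 5 of 12 cases, among them haptoglobin, Hp (-2.83, adjusted p = 0.00946), and hemopexin, Hpx (-3.33, adjusted p = 0.0111). Of 8 genes of iron sensing and storage 1 fell: Aco1, which encodes iron regulatory protein 1 (-1.58, adjusted p = 0.0291, and -0.96, not called, under total-count scaling). The second regulator Ireb2 had a value of -0.52 (0.06 under total-count scaling) and Ncoa4, the receptor that sends ferritin to lysosomes, of -0.91 (adjusted p = 0.0521). Lcn2 had a value of -1.39 (adjusted p = 0.114) and neither of the 2 sequestration genes was called.

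The hepatocyte markers moved with these genes. All 13 were called lower. Their summed level, with Alb the largest part and none at 0, was 144163 and 115085 CPM (Mt3), 111475 and 29226.5 (Mt2), 100695 and 26506 (Mt1) and 3829 and 5333 (Ht). The samples low in Tfr2, Cp and Slc40a1 among Mt, Mt2 2 and Mt1 2, were those low in hepatocyte markers. On the joint scale, log2(CPM + 1) of Tfr2 minus its mean over the hepatocyte markers was -3.86 and -3.68 in con and -3.42 and -3.28 in Ht. The same difference was -3.62 and -4.25 in con and -0.86 and -1.25 in Ht for Trf, -2.24 and -2.15 against 0.38 and 0.86 for Cp, and -4.96 and -5.18 against -2.45 and -2.17 for Slc40a1. Over the Mt samples the difference ran from -4.00 to -3.31 for Tfr2 and from -3.93 to -1.93 for Trf. It ran from -1.92 to -0.50 for Cp and from -4.76 to -3.59 for Slc40a1. For Tfr2 the value of Mt1 2 (-3.31) lay between those of the Ht samples. Kupffer cells are the resident macrophages of the liver, and 6 of their 7 markers fell, with a summed level of 568 and 754 CPM (Mt3), 679 and 299 (Mt2), 965 and 268 (Mt1) and 79.8 and 131 (Ht) (Cd5l the largest part, none at 0). Of 7 markers each, 5 erythroid markers, Alas2 among them, and 3 endothelial markers (1 under total-count scaling) also fell, of 12 macrophage markers 1 rose (6 under total-count scaling), of 7 monocyte and 6 neutrophil markers 1 each fell, and edgeR called 0 of 7 proliferation markers (6 at an unadjusted p under 0.05, 0 by DESeq2, 7 higher under total-count scaling). Summed erythroid markers were at 108 to 399.7 CPM in Mt and at 40.4 and 24.0 in Ht (Hbb-bs the largest part in Ht). The part of each of these cell types in the fall of the 5 genes was not tested.

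**Figure D2:**
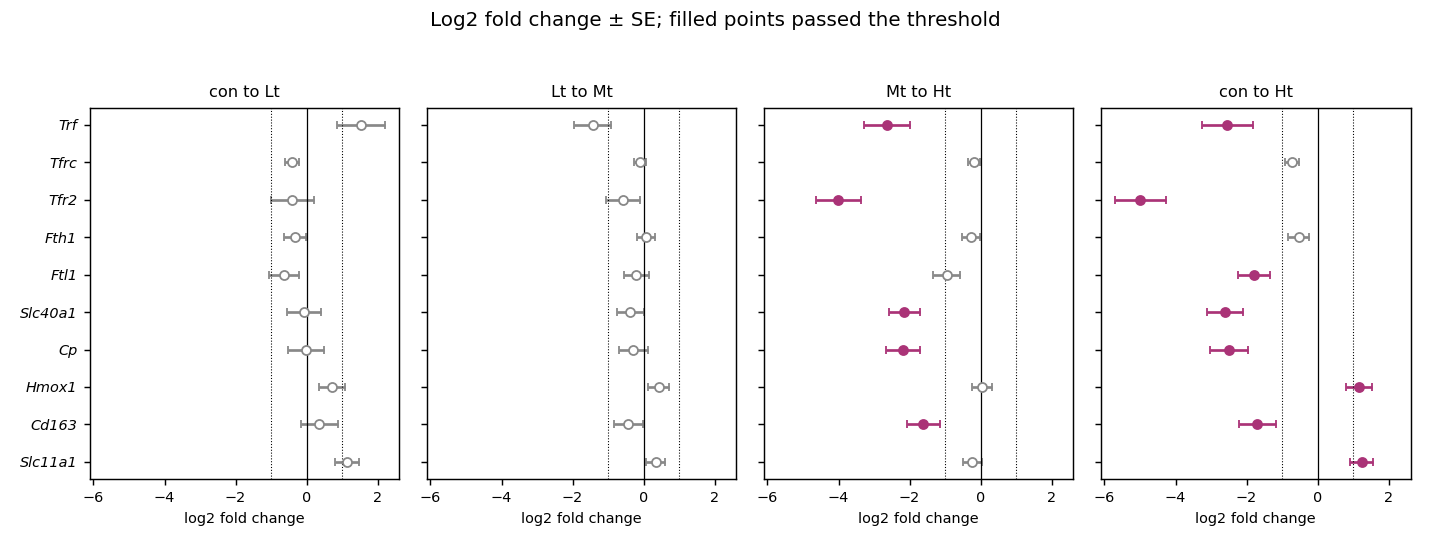
Log2 fold changes of the 10 genes with their SE in con to Lt, Lt to Mt, Mt to Ht and con to Ht, where filled points passed the threshold and dotted lines mark an absolute value of 1. No filled point is found in con to Lt or Lt to Mt, and the lowest values are those of Tfr2 in Mt to Ht (-4.00) and con to Ht (-4.99).

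Normal liver was also compared with Ht, and genes of the same role divided in it. Of the 3 genes of macrophage iron and heme handling Slc11a1 and Hmox1 rose and Cd163 fell. Slc11a1 and Hmox1 rose 2.36-fold (log2 fold change 1.24, SE 0.33, adjusted p = 0.00909) and 2.25-fold (1.17, SE 0.36, adjusted p = 0.0188). Tfr2 fell 31.8-fold (-4.99, SE 0.71, adjusted p = 4.11e-04). Slc40a1 fell 6.09-fold (-2.61, SE 0.50, adjusted p = 0.00160), Trf 5.82-fold (-2.54, SE 0.71, adjusted p = 0.0115), Cp 5.60-fold (-2.49, SE 0.53, adjusted p = 0.00302), Ftl1 3.49-fold (-1.80, SE 0.45, adjusted p = 0.00625) and Cd163 3.24-fold (-1.70, SE 0.52, adjusted p = 0.0182). Tfrc and Fth1 did not pass the fold threshold at -0.72 and -0.53, and turned to 0.47 and 0.65 under total-count scaling. Con and Ht did not overlap for any of the 10 genes, and the share of all genes without overlap was not counted.

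The 10 genes thus held 2 called higher, where 25.8% of all genes were, and 6 called lower, where 24.1% were. DESeq2 gave 2 and 6 as well, and 4514 and 4169 over all genes. The median was -1.75 over the 10 genes (-0.56 under total-count scaling) and 0.09 over all genes. All genes called divided into 4437 higher and 4139 lower, or 8822 and 2249 under total-count scaling, under which Trf (-1.35), Ftl1 (-0.61) and Cd163 (-0.51) lost their calls. Leaving out con 2 ended the calls of Hmox1 (0.73), Slc11a1 (0.86) and Cd163 (-1.74), leaving out Ht 2 those of Slc11a1 (1.00), Trf (-2.53) and Cd163 (-1.73), and leaving out con 1 those of Trf (-2.12) and Cd163 (-1.65), while Hmox1 moved to 1.79 without con 1. With Ht 1 and 3 as separate libraries and no Ht 2, the alternative chosen after seeing the data, Slc11a1 missed the fold threshold at 0.99.

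Of the 58 other iron genes 4 rose and 31 fell, or 14 and 18 under total-count scaling, and their median was -1.23 (unchanged with 3 genes at their bound, and -0.05 under total-count scaling). The 4 were Lcn2 (3.07, SE 0.76, adjusted p = 0.00606), the metalloreductase Steap2 (1.82, SE 0.30, adjusted p = 7.47e-04), the heme exporter Flvcr1 (1.08, SE 0.24, adjusted p = 0.00366) and Erfe, which encodes erythroferrone, a suppressor of hepcidin. Erfe had 0 counts in con and 56 and 40 in Ht, at least 4.74-fold higher (adjusted p = 0.00398). Hamp fell from 1125 and 968 CPM to 4.85 and 10.2 (-7.13, SE 1.09, adjusted p = 5.41e-04), Hamp2 from 2.48 and 0.662 CPM to 0, at least 19.6-fold lower, and Alas2, Tmprss6 and Hfe2 had log2 fold changes of -6.85, -5.30 and -4.87. The genes of the iron regulatory proteins fell as well, Aco1 by 2.79 and Ireb2 by 1.21 on the log2 scale. So did Ncoa4 by 2.09, Hp by 2.89, Hpx by 3.35 and Slc11a2 by 1.06. Under total-count scaling Ireb2 (-0.02), Ncoa4 (-0.90) and Slc11a2 (0.13) were not called. Steap3 (-0.55, or 0.64 under total-count scaling) and Slc25a37 (0.07) did not pass, the latter called higher under total-count scaling (1.25).

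By lists, 1 of 11 hepcidin axis genes rose and 6 fell (2 rose and 5 fell under total-count scaling). Of 9 uptake and transport genes 1 rose and 5 fell. Further, 3 of 8 sensing and storage genes fell (4 rose and 1 fell under total-count scaling). Of 16 heme synthesis and mitochondrial genes 11 fell (2 rose and 3 fell under that scaling). Of 12 heme handling genes 1 rose and 6 fell (3 rose and 5 fell under it), and of 2 sequestration genes 1 rose (2 under it). Beside them 13 of 13 hepatocyte markers fell, from a summed 211173 and 183516 CPM (con) to 3829 and 5333 (Ht), and 4 of 7 Kupffer cell markers fell (1 rose and 2 fell under total-count scaling), from 451 and 335 CPM (Clec4f the largest part in con) to 79.8 and 131, while 10 of 12 macrophage markers rose, from 752 and 499 CPM to 3113 and 3176. Of 7 monocyte markers 6 rose and 1, F10, fell. F10 held 701 and 609 CPM of the summed monocyte level in con, which was 715 and 619 CPM. Further, 2 of 6 neutrophil (6 under total-count scaling) and 7 of 7 proliferation markers rose, and 3 of 7 endothelial (2 rose and 2 fell under total-count scaling) and 6 of 7 erythroid markers fell (erythroid sum 523 and 382 CPM in con, with Slc4a1 at 0, against 40.4 and 24.0 in Ht). Log2 of Slc11a1 minus the mean log2 of the macrophage markers was -0.66 and -0.96 in con and -2.23 and -1.89 in Ht. For Hmox1 it was 0.27 and -0.21 in con and -1.10 and -1.35 in Ht. Both genes thus rose in tissue and were lower relative to the macrophage markers in Ht than in con, and the part of macrophage number in their rise was not tested.

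The cells sorted from Mt2 metastases show these genes in myeloid cells. Both preparations held macrophage RNA: the 12 macrophage markers summed to 22473.5, 22564 and 21225 CPM in F4/80+ cells and 19996, 19540.5 and 32712 in CD11b+ cells (Lyz2 the largest part, none at 0), beside 1936 and 2782 in Mt2 tissue. Kupffer cell markers summed to 2428, 972 and 616 CPM in F4/80+ cells (Clec4f) and 97.9, 128 and 59.8 in CD11b+ cells (Cd5l), none at 0. Neutrophil markers summed to 158, 236 and 450.1 CPM in F4/80+ cells (Csf3r the largest part; Ly6g at 0 in F4/80+ 1) and 1112, 1001 and 3522 in CD11b+ cells (S100a9 in libraries 1 and 3, Csf3r in library 2). Hepatocyte markers summed to 202 to 362 CPM in F4/80+ cells and 65.97 to 190.4 in CD11b+ cells (Alb; Cps1 at 0 in CD11b+ 1 and 2). F4/80+ 1 was the richest in Kupffer cell markers and CD11b+ 3 the richest in neutrophil markers.

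The comparison of CD11b+ with F4/80+ cells asked what set the F4/80+ macrophages of the metastases apart. Slc40a1, Cd163, Slc11a1 and Tfr2 were higher in every F4/80+ than in every CD11b+ library, by the most for Cd163 and Slc40a1. The share of all genes that separated in this way was not counted. Slc40a1 was at 331, 158 and 107 CPM in F4/80+ cells and 32.3, 50.3 and 32.2 in CD11b+ cells, and Cd163 at 433, 155 and 106 against 33.7, 49.3 and 5.46. Slc11a1 was at 561, 591 and 522 CPM against 433, 399 and 443, and Tfr2 at 2.02, 0.885 and 1.43 against 0.380, 0.635 and 0.638 (18 to 40 against 8 to 15 counts per library). None was called by edgeR's test (Slc40a1 2.32, SE 0.42, adjusted p = 0.0893; Cd163 2.93, SE 0.81, adjusted p = 0.285). In Slc40a1 and Cd163 F4/80+ 1 was the highest library, and in Cd163 CD11b+ 3 was the lowest. The ranges of Fth1, Ftl1, Hmox1 and Tfrc overlapped, with Fth1 at 4132, 3821 and 3833 CPM in F4/80+ cells and 3543, 3403 and 7283 in CD11b+ cells, where CD11b+ 3 stood apart from the other 5 libraries.

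By edgeR 0 of the 10 genes were called in either direction, where 0.00701% of all genes were called higher in F4/80+ cells and 0.0701% lower. An unadjusted p under 0.05 was found for 3 of the 10 (Slc40a1, Cd163 and Tfr2) and for 1503 of all 14263 genes. DESeq2 called 1 of the 10, Slc40a1 (2.32). The other log2 fold changes were 1.33 for Tfr2 (SE 0.45), -0.81 for Trf (SE 0.44), 0.34 for Slc11a1 (SE 0.15), -0.33 for Fth1 (0.14 without CD11b+ 3), -0.19 for Ftl1 (0.13 without CD11b+ 3), 0.17 for Hmox1 (-0.22 without F4/80+ 1), -0.06 for Cp (0.03 under total-count scaling) and 0.00 for Tfrc (-0.01 by DESeq2). The median was 0.09 over the 10 genes and -0.00 over all genes. Of all genes 1 was called higher and 10 lower by edgeR, and 133 and 167 by DESeq2, and the edgeR count was 0 without F4/80+ 1, F4/80+ 2 or CD11b+ 2 and 136 without CD11b+ 3. Nothing in the labels says that the 3 libraries of a cell type are separate animals, so these p-values measure the spread between the samples, which may be technical.

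Markers of several cell types also differed between the preparations. By edgeR 0 of 7 Kupffer cell markers were called, with 7 at an unadjusted p under 0.05, each higher in F4/80+ cells, and 6 called by DESeq2, and 0 of 7 neutrophil markers, with 7 at an unadjusted p under 0.05, each lower, and 2 called by DESeq2. Likewise edgeR called 0 of 6 endothelial, 0 of 5 erythroid and 0 of 12 hepatocyte markers, each of them higher in F4/80+ cells, with 6, 5 and 6 at an unadjusted p under 0.05 and 3, 4 and 1 called by DESeq2. It called 0 of 7 monocyte, 0 of 7 proliferation and 0 of 12 macrophage markers too, with 5, 3 and 1 at an unadjusted p under 0.05, 6, 6 and 7 lower in F4/80+ cells, and 2, 0 and 0 called by DESeq2. Log2 of Slc40a1 minus the mean log2 of the Kupffer cell markers was 1.09, 1.25 and 1.15 in F4/80+ cells and 1.52, 1.84 and 2.01 in CD11b+ cells. For Cd163 it was 1.48, 1.23 and 1.14 in F4/80+ cells and 1.58, 1.81 and -0.35 in CD11b+ cells. The part of any of these cell types in Slc40a1, Cd163, Slc11a1 and Tfr2 was not tested. Of the 51 other iron genes tested edgeR called 0, with 14 at an unadjusted p under 0.05, and DESeq2 called 2 higher and 2 lower, the median being 0.08. Hp, which neutrophils also make and store, was at 72.8, 78.4 and 61.8 CPM in F4/80+ cells and 166, 175 and 294 in CD11b+ cells (-1.63, SE 0.25, adjusted p = 0.0624), and Lcn2 at 2.73, 8.85 and 54.0 against 144, 49.1 and 334 (-3.06, SE 1.09, adjusted p = 0.425), the third F4/80+ library overlapping the second of CD11b+. Alas2, also one of the erythroid markers, had a value of 2.27 (SE 0.62, adjusted p = 0.273) and Ncoa4 of 0.60 (SE 0.24, adjusted p = 0.465).

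Against Mt2 tissue, F4/80+ cells held more RNA of Slc11a1, Hmox1, Cd163 and Fth1 and less of Tfr2, Cp, Trf and Tfrc. Slc11a1 rose 12.4-fold, from 41.3 and 48.7 CPM in Mt2 to 561, 591 and 522 (log2 fold change 3.63, SE 0.31, adjusted p = 4.06e-07), and Hmox1 4.13-fold, from 51.2 and 78.3 CPM to 394, 199.96 and 209.5 (2.05, SE 0.39, adjusted p = 4.96e-04). Cd163 rose 4.46-fold (2.16, SE 0.78, adjusted p = 0.0306) from 67.5 and 36.5 CPM, and Fth1 2.34-fold (1.22, SE 0.34, adjusted p = 0.00708) from 1916 and 1448 CPM. Tfr2 fell 186-fold, from 427 and 112 CPM to 2.02, 0.885 and 1.43 (-7.54, SE 0.60, adjusted p = 2.79e-07). Cp fell 26.1-fold (-4.71, SE 0.43, adjusted p = 6.71e-07), Trf 22.2-fold (-4.47, SE 0.64, adjusted p = 3.88e-05) and Tfrc 2.25-fold (-1.17, SE 0.19, adjusted p = 1.31e-04). Slc40a1 (0.57, SE 0.48) and Ftl1 (0.92, SE 0.38) were not called.

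Of the 10 genes 4 were called higher, where 17.2% of all genes were, and 4 lower, where 25.2% were, with a median of 0.74 over the 10 genes and -0.12 over all genes. Cd163 lost its call without Mt2 1 (2.66), Mt2 2 (1.82) or F4/80+ 1 (1.33), Slc40a1 turned to -0.02 without F4/80+ 1, Tfr2 moved to -6.27 without Mt2 1 and -8.16 without Mt2 2, and Ftl1 was called without Mt2 1 (1.57) and under total-count scaling (1.03). Of the 58 other iron genes 10 rose and 26 fell, with a median of -0.96. The largest rises were those of Ltf, the lactoferrin of neutrophil granules, from 0.456 and 0.508 CPM to 3.44, 16.8 and 107 (6.43, SE 1.68), Spic, a transcription factor of iron-recycling macrophages (2.37, SE 0.62), Hfe, the hemochromatosis protein (1.85, SE 0.26), Slc22a17, a lipocalin 2 receptor (1.84, SE 0.45), and Blvra, which turns biliverdin into bilirubin (1.404, SE 0.22). The largest falls were those of Scara5 (-10.33), Hfe2 (-9.30), Hamp (-9.00), Steap4 (-8.98) and Tmprss6 (-8.91), and Scara5, with 0, 1 and 0 counts, and Hfe2, with 0, 2 and 1, were at or below the floor in F4/80+ cells, so these fitted values depend on the prior count. By lists, 1 rose and 7 fell of 11 hepcidin axis genes, 1 and 6 of 9 uptake genes, 3 and 1 of 8 sensing and storage genes, 1 and 7 of 16 heme synthesis genes, 3 and 5 of 12 heme handling genes, and 1 of 2 sequestration genes rose. Hp (-5.28), Hpx (-7.73), Alas2 (-5.05) and Aco1 (-1.17) fell, and Ncoa4 (-0.10), Steap3 (-0.12) and Slc25a37 (0.43) were not called, Ncoa4 turning to 0.00 under total-count scaling.

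CD11b+ cells were also set against Mt2, and there Cd163 was not called and Slc40a1 fell. Slc11a1 rose 9.44-fold, to 433, 399 and 443 CPM (3.24, SE 0.30, adjusted p = 6.72e-07), Hmox1 3.54-fold, to 228, 293 and 168 (1.82, SE 0.39, adjusted p = 0.00108). Fth1 rose 2.82-fold (1.496, SE 0.34, adjusted p = 0.00189) and Ftl1 2.08-fold, from 1538 and 717 CPM to 1789.6, 1979 and 3271 (1.06, SE 0.38, adjusted p = 0.0285). Tfr2 fell 484-fold, to 0.380, 0.635 and 0.638 CPM (-8.92, SE 0.65, adjusted p = 1.04e-07). Cp fell 26.0-fold (-4.70, SE 0.43), Trf 13.2-fold (-3.72, SE 0.62) and Tfrc 2.33-fold (-1.22, SE 0.19). Slc40a1 fell as well (-1.81, SE 0.47, adjusted p = 0.00434), and Cd163 was not called (-0.82, SE 0.71).

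Of the 10 genes 4 were called higher, where 17.6% of all genes were, and 5 lower, where 26.3% were, with a median of -1.02 over the 10 genes and -0.08 over all genes. Slc40a1 lost its call without Mt2 1 (-1.16), Ftl1 without Mt2 2 (0.64) or CD11b+ 3 (0.74), and both Ftl1 (1.08) and Fth1 (1.51) with only the compared groups fitted. Ftl1 moved to 1.71 without Mt2 1, Tfr2 to -7.66 without Mt2 1 and -9.55 without Mt2 2, and Trf, at 20.8, 17.8 and 58.3 CPM in CD11b+ cells, to -4.46 without CD11b+ 3. Of the 58 other iron genes 8 rose and 25 fell, with a median of -0.81, led by Ltf (9.18, SE 1.83; 226, 32.9 and 599.8 CPM), Hfe (1.63), Blvra (1.62), Fbxl5, which marks iron regulatory protein 2 for degradation (1.54), and the second heme oxygenase Hmox2 (1.43) upward. Scara5 (-10.36), Hfe2 (-9.83), Hamp (-9.80), Tmprss6 (-9.56) and Hpx (-8.68) led downward, and Scara5, Hfe2 and Hamp had from 0 to 5 counts in each CD11b+ library. Alas2 (-7.38), Hp (-3.71), Aco1 (-1.42), Ireb2 (-1.24) and Slc11a2 (-1.03) fell too.

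Both comparisons with Mt2 share its 2 samples, and the deposited table and the kind of sample (tissue or sorted cells) are the same split and cannot be told apart. Xist, expressed from the inactive X chromosome, was at 0 to 0.210 CPM in tissue and at 960.0, 971 and 981 in F4/80+ and 1035, 835 and 322 in CD11b+ libraries, so tissue and sorted cells did not overlap in it. The tissue labels give male mice and the sorted-cell labels no sex. By this gene every sorted library held RNA of female mice and the tissue did not. The sorted cells thus did not come, or did not all come, from the mice of the Mt2 tissue. Sex and animal differ along with the kind of sample and cannot be told apart from it. All 13 hepatocyte markers were lower and all 12 macrophage markers higher in each cell type than in Mt2, whose hepatocyte sum was 116821 and 30628 CPM. In F4/80+ cells 1 of 7 Kupffer cell markers, Vsig4, was called higher (6 by DESeq2 and under total-count scaling), in CD11b+ cells 6 of 7 were lower, monocyte markers rose in 6 and fell in 1 of 7 cases in each, neutrophil markers rose in 5 of 7 in F4/80+ and 7 of 7 in CD11b+ cells, endothelial markers fell in 4 and 6 of 7, erythroid markers in 4 and 6 of 7, and proliferation markers in 1 of 7 each. The hepatocyte sums of the sorted cells lay below those of every tissue sample, as did Tfr2, Cp and Trf, and the part of hepatocyte RNA in the tissue levels was not tested.

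**Figure D3:**
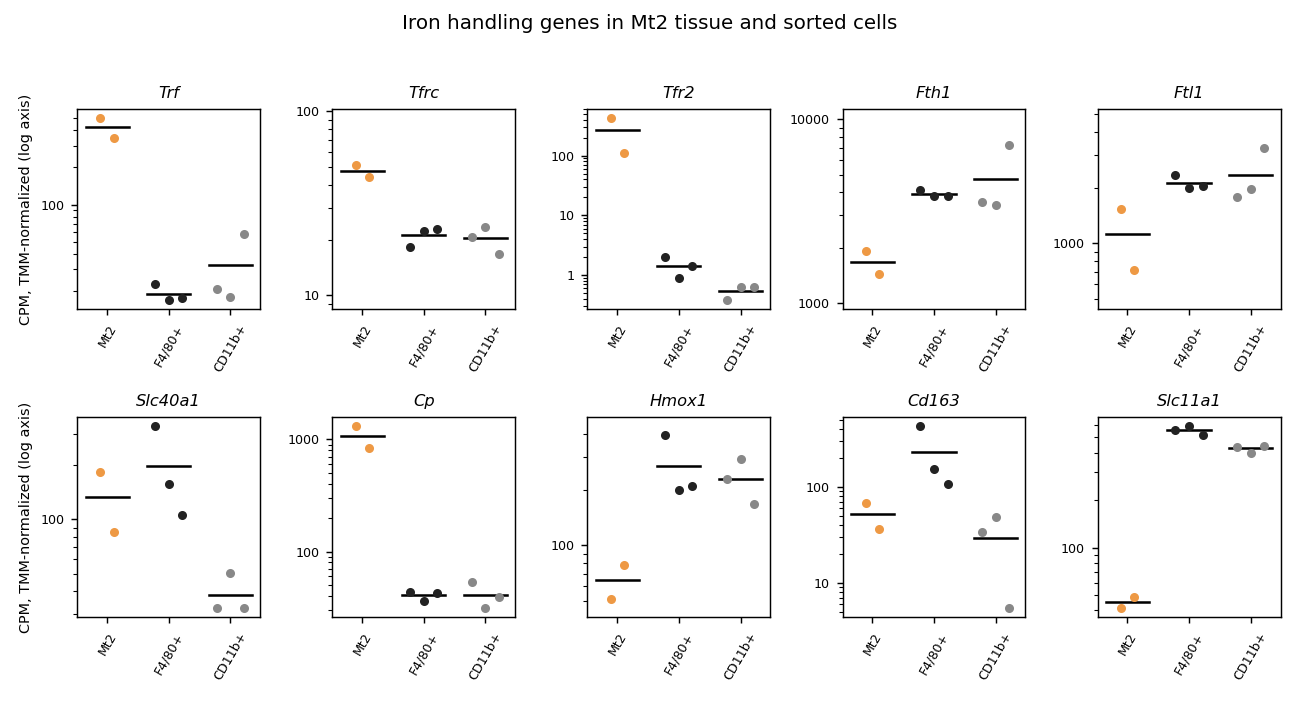
CPM of the 10 genes (log axis, normalized over tissue and sorted cells together) in Mt2 tissue, F4/80+ cells and CD11b+ cells, with 1 point per library and a bar at the group mean. Slc11a1 was at 522 to 591 in F4/80+ cells and 399 to 443 in CD11b+ cells, above both Mt2 samples, and Slc40a1 and Cd163 were higher in each F4/80+ than in each CD11b+ library.

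Per length, ferritin led in the sorted cells too. Mean FPKM in F4/80+ cells was 4537 for Fth1, 1589 for Ftl1, 153 for Hmox1, 151 for Slc11a1, 42.4 for Cd163, 22.1 for Slc40a1, 5.75 for Trf, 4.30 for Cp, 3.43 for Tfrc and 0.333 for Tfr2. In CD11b+ cells it was 5477, 1751, 131 and 115 for the first 4 of these, followed by Trf at 9.73, Cd163 at 5.39, Cp at 4.33, Slc40a1 at 4.25, Tfrc at 3.30 and Tfr2 at 0.127. Fth1 and Ftl1 together took 0.619% to 1.00% of all counts in sorted cells and 0.249% to 0.364% in tissue, and the ratio of Fth1 to Ftl1 FPKM was 2.71, 2.97 and 2.91 in F4/80+ and 3.06, 2.66 and 3.45 in CD11b+ cells, inside the range of the tissue samples. Of 16 genes and pseudogenes with ferritin names, Fth1 and Ftl1 included, 10 had 0 counts in all libraries, and Ftl1-ps1, with the most counts of the other 4, held 1.28% to 2.61% of the reads of itself and Ftl1.

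Across the 13 tissue samples, genes with profiles like each of the 10 were found by Pearson's r of log2(CPM + 1) over 12949 genes, as a description of samples that share their libraries and groups. Tfr2 went with the plasma protein genes Itih1 (r = 0.999), Hrg (0.998) and Plg (0.998), Cp with Clu (0.994) and Lsr (0.984), and Slc40a1 with C4bp (0.991) and Cobl (0.991). Trf went with Psmd8 (0.958), Selenok (0.955) and Armcx3 (0.952), Ftl1 with Por (0.984), Shb (0.976) and Rnf149 (0.975), and Fth1 with Golph3 (0.947) and Smad4 (0.946). Cd163 went with Kcna2 (0.977), Trib1 (0.974) and the Kupffer cell marker Vsig4 (0.964), Slc11a1 with Slc15a3 (0.964), Cd86 (0.962) and Mpeg1 (0.961), and Hmox1 with Cdc42ep2 (0.947), Ptprm (0.928) and Cd14 (0.924). Tfrc had the least close neighbours, Ppat (0.901), Chd1l (0.899) and Lrrc58 (0.857). Among the 10 themselves Slc40a1 and Cp (0.982), Slc40a1 and Tfr2 (0.977) and Tfr2 and Cp (0.961) were the closest, Fth1 and Ftl1 reached 0.925, and Hmox1 and Slc11a1 0.869 (n = 13 throughout).

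The transcripts of some of these genes carry iron-responsive elements, hairpins to which the iron regulatory proteins encoded by Aco1 and Ireb2 bind when iron is scarce, blocking translation from a 5′ UTR and stabilizing the mRNA from a 3′ UTR. They are shown because they are the sequence feature that Tfrc, the ferritins and Alas2 share. The loop CAGTGN, preceded by C and 5 bases that pair with the 5 bases after the loop, was searched on the transcript strand of GENCODE vM21 transcripts (GRCm38), with capitals for the loop. Fth1 holds it in the 5′ UTR in exon 1 at chr19:9982738-9982754 (plus strand), Ftl1 in the 5′ UTR in exon 1 at chr7:45459785-45459801 (minus strand) and Alas2 in the 5′ UTR in exon 1 at chrX:150547464-150547480 (plus strand). Tfrc holds 4 in the 3′ UTR in exon 19, at chr16:32631225-32631241, 32631604-32631620, 32631669-32631685 and 32631716-32631732 (plus strand).
Fth1: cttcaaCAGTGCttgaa
Ftl1: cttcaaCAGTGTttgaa
Alas2: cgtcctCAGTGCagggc
Tfrc site 1: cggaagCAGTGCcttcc
Tfrc site 2: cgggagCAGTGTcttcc
Tfrc site 3: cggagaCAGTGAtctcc
Tfrc site 4: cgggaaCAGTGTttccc
The same pattern occurred in the first 200 bases of 14 of 21800 transcripts (0.0642%) and in 58 of 18381 windows of 1000 bases of 3′ UTR (0.316%), 1 of which held more than 1 (0.00544%). Among the other searched genes, Tfr2, Slc11a1, Cd163 and Cp had no match. Trf, Slc40a1 and Hmox1 were not searched, so whether they hold the pattern was not tested. A match describes letters and not binding, and the 4 genes with matches ran from no call (Tfrc and Fth1) to Alas2 at -6.85 in con to Ht.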

How the data were processed

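RNA was measured in 14 tissue and 6 sorted-cell libraries (total RNA, NEBNext Ultra). Per the labels the authors used CASAVA, HISAT2 2.0.5 and featureCounts 1.5.0-p3 on GRCm38, and the deposited tables hold raw counts per gene, with gene length in bases in another deposited column. Counts were fitted with edgeR 4.0.16 (R 4.3.3; TMM, filterByExpr, quasi-likelihood F test, Benjamini-Hochberg over all genes tested), in fits of 13 tissue samples in 7 groups, 6 sorted libraries, and 19 samples in 9 groups. L-con entered the tissue fit and was not tested. FPKM used the deposited gene length and the normalized total. The members and lists were chosen with earlier results of these data known. In each comparison at most the 5 called iron genes with the largest changes per direction were named, others from a fixed 12, and up to 3 of the genes most like each member with a mean log2 CPM of at least 1. Alternatives were DESeq2 1.42.0, total-count scaling, a minimum of 10 counts in every library, no filter beyond 1 count, no fold threshold, only the groups compared, replicate number as a block, Ht as 3 libraries, Mt as 1 group of 6, and each library left out. The pipeline was tested on simulated data. Figures were drawn with matplotlib 3.10.9.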

Additional observations from a re-analysis of the deposited data

Results flagged for a closer look

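In the remote tumor-free liver of an injected mouse (L-con, 1 library, not tested), Slc11a1 stood at 33.5 CPM, above the control livers at 20.7 and 11.2 CPM. In the same library Lcn2 stood at 76.2 CPM, above 8.59 and 1.90 CPM in the control livers. Both were flagged because this sample entered no comparison and its levels exceeded those of both control samples. Tfrc, Tfr2, Trf, Slc40a1, Hmox1, Cd163 and Cp exceeded both controls as well, and the share of all genes that did so was not counted. The summed macrophage markers were 1193 CPM in this library, beside 752 and 499 in con, and the summed proliferation markers 115 CPM, beside 34.6 and 35.1. The part of either in the levels was not tested.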

How the results depend on the processing

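Outside the settings that leave out a library, total-count scaling turned the direction of Slc40a1 (0.21) and Cp (0.24) for con to Lt, Tfrc (0.22), Ftl1 (0.11) and Cp (0.0293) for Lt to Mt, Tfrc (0.37), Fth1 (0.30) and Slc11a1 (0.30) for Mt to Ht, Tfrc (0.47) and Fth1 (0.65) for con to Ht, and Cp (0.0254) for CD11b+ to F4/80+, none of them called. Cp for con to Lt was 0.0168 with a minimum of 10 counts, and Tfrc for CD11b+ to F4/80+ was -0.00547 by DESeq2. Members called became, for con to Lt, 1 by DESeq2, 2 with no filter and 1 with only the groups compared, for Lt to Mt 1 with no filter, for con to Ht 5 under total-count scaling, and for CD11b+ to F4/80+ 1 by DESeq2 and 2 with no filter. All genes called became, for con to Lt, 1154 with a minimum of 10 counts, for Lt to Mt 240 by DESeq2 and 887 with no filter, for Mt to Ht 3888 with no fold threshold and 4360 under total-count scaling, for CD11b+ to F4/80+ 300 by DESeq2, 6 under total-count scaling, 5 with a minimum of 10 counts, 242 with no filter and 78 with the replicate block, for Mt2 to F4/80+ 3742 and for Mt2 to CD11b+ 3870, both with a minimum of 10 counts, where fewer genes were tested. The cause was otherwise not tested.

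Over the settings that left out 1 library, members called ranged from 0 to 1 for con to Lt, 0 to 6 for Mt to Ht and 5 to 8 for con to Ht, and all genes called from 735 to 2284 for con to Lt, 0 to 778 for Lt to Mt, 0 to 3549 for Mt to Ht and 0 to 136 for CD11b+ to F4/80+. A lone sample was assumed to vary like the other groups. Directions turned within -0.25 to 0.0847 for Slc40a1 and -0.34 to 0.22 for Cp (con to Lt), -0.20 to 0.00851 for Tfrc, -0.0630 to 0.22 for Fth1 and -0.59 to 0.0285 for Cp (Lt to Mt), -0.0527 to 0.16 for Hmox1 (Mt to Ht), -0.11 to 0.11 for Tfrc, -0.52 to 0.14 for Fth1, -0.36 to 0.13 for Ftl1, -0.22 to 0.38 for Hmox1 and -0.23 to 0.17 for Cp (CD11b+ to F4/80+), and -0.0168 to 1.21 for Slc40a1 (Mt2 to F4/80+). The labels tie samples by number only: same-numbered F4/80+ and CD11b+ deviations had r = -0.0428, -0.136 and 0.0117, and 0 of 3 correlated best with their own number. Between compared tissue groups of 2 samples, where both numbers share 1 value of r, it ran from -0.363 (Mt2 and Ht) to 0.585 (Lt and Mt2), and between Mt2 and sorted cells from -0.0701 to 0.143. With replicate number as a block, members called for Mt2 to CD11b+ went from 9 to 8, Ftl1 (0.96) missing the fold threshold, and no other member's call changed. Tfr2 was not tested in sorted cells with a minimum of 10 counts. At these depths 3 counts limit what a value of 0 allows.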

Other observations

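Other iron genes of the remote liver also lay outside the control livers. Cd163 was at 134 CPM (70.1 and 66.1 in con), Slc40a1 at 286 (242 and 192), Tfr2 at 614 (519 and 543) and Tfrc at 83.8 (73.7 and 56.7), each above both controls, while Hamp was at 346 (1125 and 968) and Fth1 at 1823 (2143 and 1947), each below both. Trf at 627 CPM (616 and 366 in con), Cp at 1822 (1601 and 1572) and Hmox1 at 40.9 (40.5 and 19.4) were also above both. Ftl1 lay between the control values. Kupffer cell markers summed to 938 CPM in this library, beside 451 and 335 in con, and hepatocyte markers to 169041, beside 211173 and 183516. With 1 library these are values without a test.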
